A study of Mus musculus with 8 samples.

Results

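The genes described here are 6 genes of the oligodendrocyte lineage, *Olig1*, *Olig2*, *Nkx2-2*, *Sox10*, *Pdgfra* and *Erbb3*, out of 18193 genes measured in embryonic mouse brain. They were chosen from their measured values, because *Olig2* and *Nkx2-2* read lower in brains lacking REST in neural progenitors than in controls, so their differences between the genotypes are given as descriptions, with no p-value. The arrays read them with 11 probe sets, a probe set being a group of short probes for 1 transcript. *Olig1*, *Olig2* and *Nkx2-2* have 1 probe set each, *Sox10* and *Pdgfra* have 3 each and *Erbb3* has 2.

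Oligodendrocytes are the myelinating cells of the central nervous system and arise from oligodendrocyte precursor cells (OPCs). *Olig1* and *Olig2* encode basic helix-loop-helix transcription factors and *Nkx2-2* a homeodomain factor, and in the ventral neural tube, where Sonic hedgehog induces *Olig2* and *Nkx2-2*, their progenitors give rise to neurons before they give rise to OPCs. *Sox10* encodes an HMG-box factor of OPCs and of neural crest, *Pdgfra* the receptor through which PDGF keeps OPCs dividing, and *Erbb3* a neuregulin receptor of Schwann cell precursors and the oligodendrocyte lineage. *Pdgfra* is also strongly expressed in mesenchyme, outside the neural lineage.

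Total RNA of whole brain was hybridised to Affymetrix arrays from *Cre+, Rest GTi/GTi* embryos and from *Rest GTi/GTi* littermates as controls, all at E12.5, strain C57/BL6, with 4 arrays labelled as biological replicates per genotype. Both genotypes carry 2 copies of the GTi allele, a gene trap turned so that *Rest* is spliced normally, and only the *Cre+, Rest GTi/GTi* embryos carry *Nestin Cre*, which turns the trap back in neural progenitors, so that cells outside that lineage keep *Rest*. Cre and REST loss occur together on every array and their parts cannot be told apart. Whether an array holds 1 embryo or several is not stated, so the spread between arrays may be partly technical.

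Values are normalized intensities: the deposited linear intensities were made to share 1 distribution (quantile normalization). A log2 fold change is *Cre+, Rest GTi/GTi* minus control after adding a constant of 16, which shrinks the change of dim probe sets, and n = 4 arrays per genotype throughout. Medians of the deposited intensities ran from 40.9 to 68 over the 8 arrays. The targeted gene, *Rest*, read 163.1, 216.7, 84.4 and 133.7 in brains labelled *Cre+, Rest GTi/GTi*, in replicate order, against 170.1, 271.8, 211.1 and 198.3 in those labelled control. The genotypes overlapped, since replicate 2 of *Cre+, Rest GTi/GTi* exceeded all but 1 control (log2 fold change -0.51, standard error 0.25, limma adjusted p = 0.758). These are values of the brightest *Rest* probe set, and only the 2 brightest were read out. The second read 161, 203.6, 76.6 and 77.1 in *Cre+, Rest GTi/GTi* brains, against 185.1, 223.1, 158.4 and 213.4 in controls, again with an overlap. *Eif2s3y*, on the Y chromosome, read 689 to 845.3 in *Cre+, Rest GTi/GTi* brains, against 627.2, 5.7, 0.2 and 736 in controls, and *Xist*, expressed from the inactive X, was bright on control replicates 2 and 3 alone. Sex was therefore not balanced between the genotypes, with Y-linked signal on every *Cre+, Rest GTi/GTi* array but only on control replicates 1 and 4. *Pax6*, a transcription factor of neural progenitors, read 1302.2 to 1545.1 in *Cre+, Rest GTi/GTi* brains and 1338.6 to 1652.4 in controls.

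The promoters of *Olig2*, *Nkx2-2* and *Pdgfra* are shown because the first pair read lower on every *Cre+, Rest GTi/GTi* array and *Pdgfra* differed most between arrays of 1 genotype, and they are the 3 of the 6 genes that the RefSeq table used (GRCm38.p6) matched. Each sequence is the 250 bases before the transcript start that the table uses, 5′ to 3′ on its own strand, at chr16:91225300-91225549 (+) for *Olig2*, chr2:147186403-147186652 (-) for *Nkx2-2* and chr5:75152001-75152250 (+) for *Pdgfra*. Capitals mark every match, on both strands, to the motifs searched. The *Olig2* window ends just before the annotated gene span, whereas the *Nkx2-2* and *Pdgfra* windows lie inside the spans, which take in transcripts that start further upstream.
Olig2: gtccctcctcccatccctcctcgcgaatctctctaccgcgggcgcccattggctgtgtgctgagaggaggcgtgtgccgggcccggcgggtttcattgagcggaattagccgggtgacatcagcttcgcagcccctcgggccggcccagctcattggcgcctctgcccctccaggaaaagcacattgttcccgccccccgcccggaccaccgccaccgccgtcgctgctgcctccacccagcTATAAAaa
Nkx2-2: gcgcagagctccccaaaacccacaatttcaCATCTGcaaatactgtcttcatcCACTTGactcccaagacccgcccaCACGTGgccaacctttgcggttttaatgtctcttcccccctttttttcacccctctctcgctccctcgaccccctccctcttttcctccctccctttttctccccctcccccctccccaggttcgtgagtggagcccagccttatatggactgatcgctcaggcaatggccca
Pdgfra: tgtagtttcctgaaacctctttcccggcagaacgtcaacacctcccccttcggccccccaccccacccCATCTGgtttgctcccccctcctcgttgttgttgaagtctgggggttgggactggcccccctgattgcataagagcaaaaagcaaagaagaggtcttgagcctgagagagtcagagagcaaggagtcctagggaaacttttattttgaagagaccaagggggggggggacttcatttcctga

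The motifs were the left part of the REST element RE1 (TTCAGCACC), its right part (GGACAGCG), a Gli site (GACCACCCA), the E-box that basic helix-loop-helix factors bind (CANNTG) and the TATA box (TATAAA). The *Olig2* window held a TATA box starting 8 bases before the transcript start and no E-box. The *Nkx2-2* window held 3 E-boxes, starting 220, 197 and 173 bases before the transcript start, and the *Pdgfra* window 1, starting 182 bases before it. Neither part of RE1 nor the Gli site matched in any of the 3 windows, and among 32851 promoter windows of this length these 3 motifs were found in 0.301%, 0.992% and 0.225%, the E-box in 66.2% and the TATA box in 12.4%. A match is a stretch of letters and no measure of binding, and the absence of one says nothing about a factor.

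Across the 6 genes, *Olig2* and *Nkx2-2* were lower on every *Cre+, Rest GTi/GTi* array than on every control, *Olig1* was lower on 3 of 4, *Sox10* overlapped between the genotypes, and *Pdgfra* and *Erbb3* were raised mainly on 1 or 2 *Cre+, Rest GTi/GTi* arrays. On their brightest probe sets 0 of 6 were called higher and 0 of 6 lower by limma at an adjusted p of 0.05. Of all genes, 0.214% were called higher and 0.011% lower. The methods' t-test with equal variances also called 0 of the 6. Over all genes it called only 14 higher and 0 lower, so its 0 calls here and in the lists below say little. At an unadjusted p of 0.05 limma passed 2 lower and 0 higher, where 3.03% of all genes passed lower and 3.94% higher. All 4 *Cre+, Rest GTi/GTi* arrays lay below all 4 controls for 2 of the 6 and above them for 1, where 2.15% of all genes lay entirely below and 2.48% entirely above. These counts rest on the contrast the genes were picked on, so nothing is read from them.

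*Olig2*, the factor needed for both motor neurons and OPCs in the spinal cord, showed the largest decrease of the 6. Its only probe set (gene at chr16:91225550-91228677) read 152.1, 163.1, 178.2 and 226.9 in *Cre+, Rest GTi/GTi* brains, against 300.7, 330, 269.1 and 237.4 in controls. The highest *Cre+, Rest GTi/GTi* value, on replicate 4, lay below the lowest control value, on control replicate 4, so the separation was complete but narrow. The means were 180.1 ± 33.0 in *Cre+, Rest GTi/GTi* brains and 284.3 ± 39.9 in controls (SD), a log2 fold change of -0.62 (standard error 0.14), or 0.65 of control. In a whole-brain sample, fewer *Olig2* cells and less RNA per cell cannot be told apart.

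*Nkx2-2*, which marks the progenitors just ventral to the *Olig2* domain, was also lower on all *Cre+, Rest GTi/GTi* arrays. Its only probe set (gene at chr2:147176485-147195434) read 388.6, 318.2, 468.3 and 448 in *Cre+, Rest GTi/GTi* brains, against 519.9, 643.7, 514.6 and 490.6 in controls. *Cre+, Rest GTi/GTi* replicate 3 came closest to the controls, and control replicate 2 stood above the other controls. The means were 405.8 ± 67.5 in *Cre+, Rest GTi/GTi* brains and 542.2 ± 68.9 in controls (SD), a log2 fold change of -0.41 (standard error 0.14), or 0.75 of control.

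*Olig1*, the neighbour of *Olig2*, whose gene starts 44.2 kb away on the same chromosome (gene at chr16:91269769-91271939), is a partner of *Olig2* in oligodendrocyte maturation. Its probe set read 94.1, 82.7, 90.5 and 131.1 in *Cre+, Rest GTi/GTi* brains, against 114.8, 143.7, 133.7 and 107.6 in controls. Replicates 1 to 3 of *Cre+, Rest GTi/GTi* lay below every control and replicate 4 lay within their range, so the genotypes overlapped. The log2 fold change was -0.30 (standard error 0.14). The 3 genes shared their extremes among the controls, with control replicate 2 highest and control replicate 4 lowest for each.

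The separation of *Olig2* and *Nkx2-2* did not hold without scaling. As deposited, *Olig2* read 182.9, 164.6, 216.3 and 161.2 in *Cre+, Rest GTi/GTi* brains, against 295.8, 332.7, 213 and 257.7 in controls, so *Cre+, Rest GTi/GTi* replicate 3 lay just above control replicate 3. As deposited, *Nkx2-2* read 470.9, 312.3, 573.1 and 323.7 in *Cre+, Rest GTi/GTi* brains, against 515.9, 653.9, 408.3 and 532.8 in controls, again with an overlap. The array medians behind these values were 67.6, 59.9, 68 and 40.9 for *Cre+, Rest GTi/GTi* and 54.3, 55.2, 44.5 and 60.9 for controls, and scaling to a common median or by cyclic loess gave the same separation as quantile normalization. Against only the controls with *Eif2s3y* signal, replicates 1 and 4, the log2 fold change was -0.55 for *Olig2*, -0.32 for *Nkx2-2* and -0.15 for *Olig1*. With all controls it was -0.62, -0.41 and -0.30, and the part of sex in these values was not tested.

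**Figure D1:**
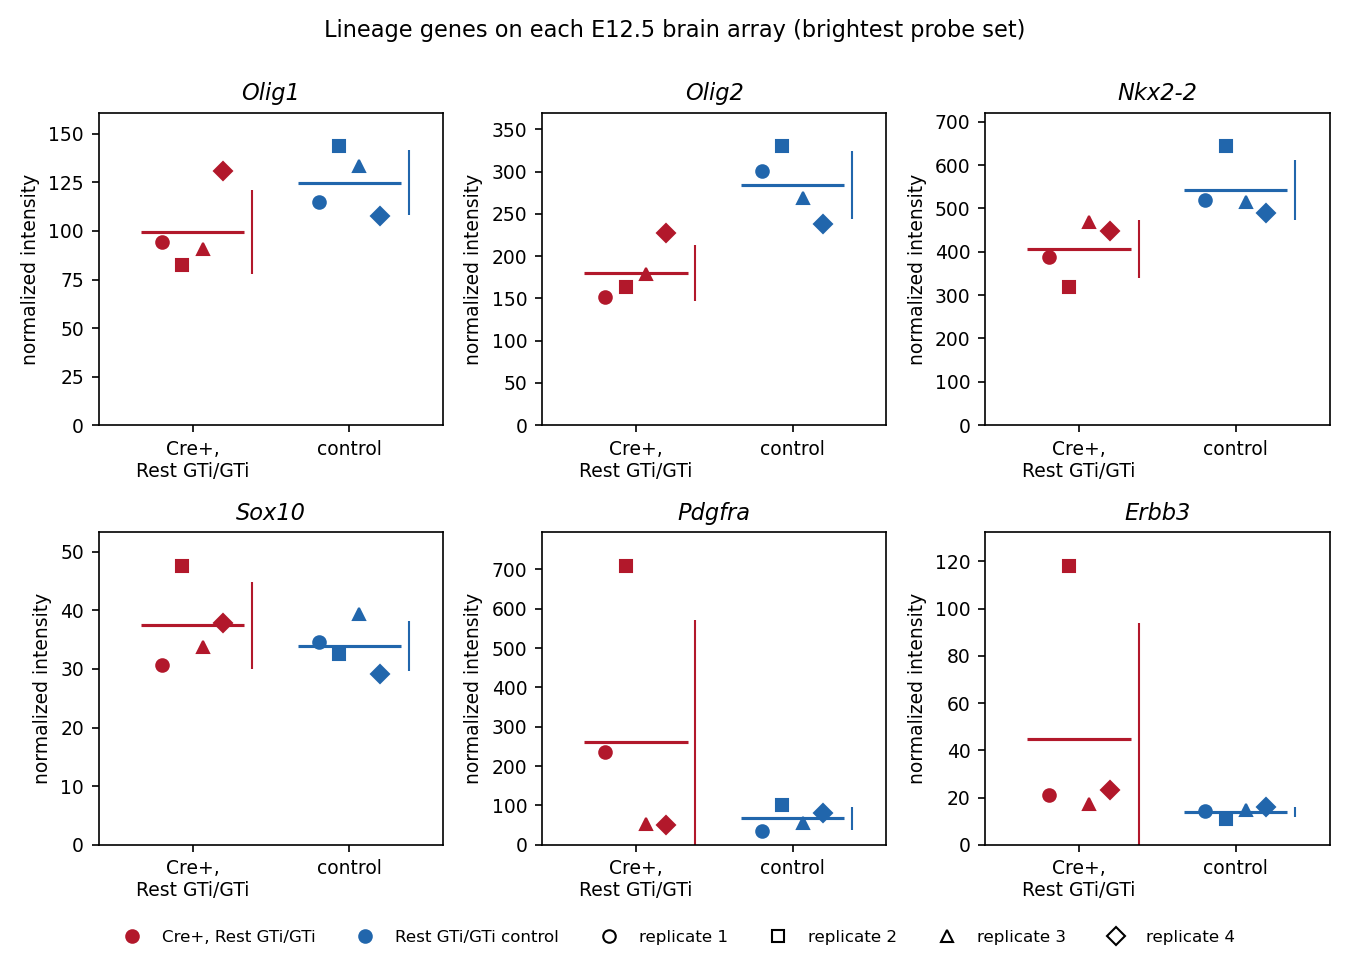
Normalized intensity of the 6 genes on each array (vertical axes, linear, each gene with its own scale), with *Cre+, Rest GTi/GTi* on the left and control on the right of each panel, horizontal lines at the means and vertical lines for 1 SD either side, cut at 0 (n = 4). *Olig2* and *Nkx2-2* show 4 *Cre+, Rest GTi/GTi* points below all controls, while *Pdgfra* and *Erbb3* have a single *Cre+, Rest GTi/GTi* point, replicate 2, far above the rest at 708.9 and 118.1.

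*Sox10*, which activates myelin genes in oligodendrocytes and specifies Schwann cells and melanocytes from the neural crest, was dim on all 3 probe sets (gene at chr15:79154913-79164490). The brightest read 30.6, 47.6, 33.8 and 37.8 in *Cre+, Rest GTi/GTi* brains, against 34.6, 32.6, 39.3 and 29.2 in controls, a log2 fold change of 0.09 (standard error 0.11). The ranges overlapped, with *Cre+, Rest GTi/GTi* replicate 2 highest. On the second the values were 7.3, 64, 7.3 and 11.2 in *Cre+, Rest GTi/GTi* brains, against 22.3, 9.2, 45 and 5 in controls, so 1 array of each genotype stood out. The dimmest read 1.3 to 4.4 in *Cre+, Rest GTi/GTi* brains and 1.8 to 2.9 in controls, under the added constant, and no change could be read from it.

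*Pdgfra*, the PDGF receptor of OPCs and of mesenchyme (gene at chr5:75151322-75198206), differed widely among the *Cre+, Rest GTi/GTi* arrays. Its brightest probe set read 235.6, 708.9, 52.2 and 49.7 in *Cre+, Rest GTi/GTi* brains, against 33.9, 100.5, 54.7 and 81.4 in controls. Replicates 1 and 2 of *Cre+, Rest GTi/GTi* lay above every control, and replicates 3 and 4 lay within the control range. The log2 fold change was 1.09 with a standard error of 0.74, and it was 0.39 without *Cre+, Rest GTi/GTi* replicate 2 and -0.25 where replicates 3 and 4 stood alone for *Cre+, Rest GTi/GTi*. The other probe sets were dim. The second read 1.3 to 18.9 in *Cre+, Rest GTi/GTi* brains and 9.6 to 17 in controls, and the dimmest read 2.8 to 26.3 in *Cre+, Rest GTi/GTi* brains and 1.3 to 11.1 in controls, with *Cre+, Rest GTi/GTi* replicate 2 highest on both.

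*Erbb3*, a neuregulin receptor that signals with a partner such as *Erbb2* (gene at chr10:128567523-128589635), was above every control on all *Cre+, Rest GTi/GTi* arrays, but the margin was small on 3 of them. Its brighter probe set read 20.9, 118.1, 17.1 and 23 in *Cre+, Rest GTi/GTi* brains, against 14.1, 10.7, 14.7 and 16.1 in controls. *Cre+, Rest GTi/GTi* replicate 2 stood alone, and *Cre+, Rest GTi/GTi* replicate 3 lay just above control replicate 4. The log2 fold change was 0.75 with a standard error of 0.41, and it was 0.28 without *Cre+, Rest GTi/GTi* replicate 2. As deposited, *Cre+, Rest GTi/GTi* replicate 4 and control replicate 4 both read 17.2, so the genotypes touched. Its other probe set read 1 to 5.1 in *Cre+, Rest GTi/GTi* brains and 1.2 to 1.7 in controls, under the constant.

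The genes fell into a set of 3 that was lower in *Cre+, Rest GTi/GTi* brains and a set of 3 in which *Cre+, Rest GTi/GTi* replicate 2 was the highest of all 8 arrays. Relative to the control mean, in log2 units, *Cre+, Rest GTi/GTi* replicate 2 was at -0.51 for *Olig1*, -0.74 for *Olig2* and -0.73 for *Nkx2-2*, but at 0.35 for *Sox10*, 3.19 for *Pdgfra* and 2.17 for *Erbb3*. *Cre+, Rest GTi/GTi* replicate 4 was the *Cre+, Rest GTi/GTi* array closest to controls for *Olig1* at 0.07 and for *Olig2* at -0.30.

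**Figure D2:**
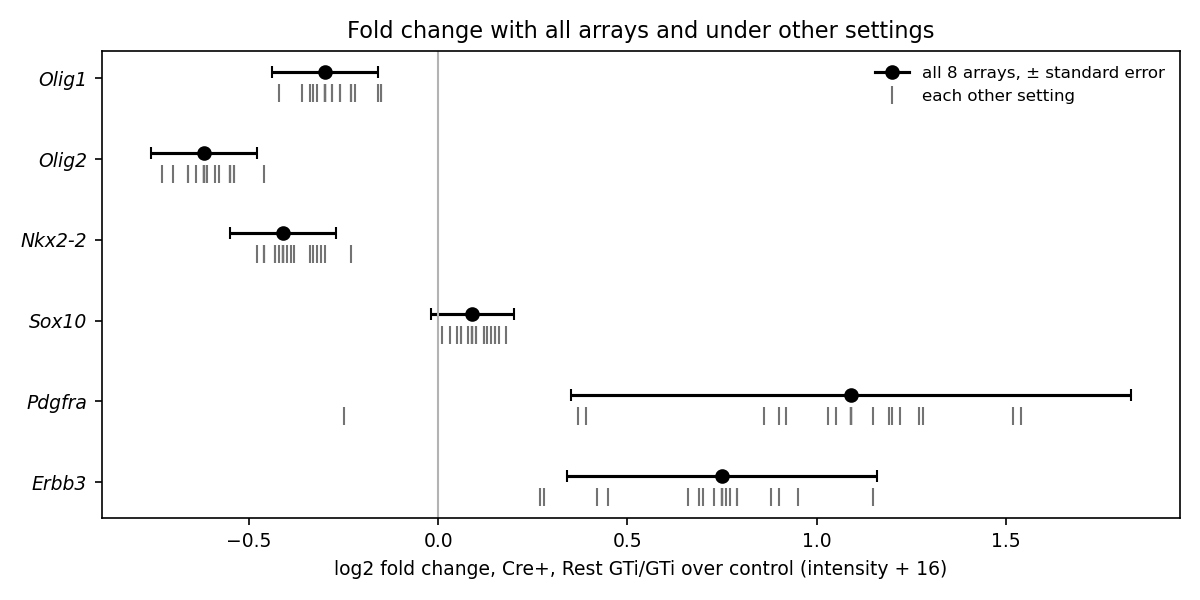
Log2 fold change of each gene, *Cre+, Rest GTi/GTi* over control, on the scale of intensity plus 16 (horizontal axis), as a point with its standard error from all 8 arrays and as ticks for the 15 other settings and for each of 8 arrays left out, where the setting keeps the gene. The ticks of *Olig1*, *Olig2* and *Nkx2-2* all lie below 0, and 1 tick of *Pdgfra*, at -0.25, lies across 0 from its point.

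Markers of other cell types were compared by array. These lists, like those further below, were chosen with earlier results of these data known, so their counts are descriptions. Among mesenchyme and meninges markers 11 of 11 measured genes had a log2 fold change above 0, with a median of 1.31, beside a median of -0.0014 and 9002 of 18193 genes above 0 over the whole table. Their summed intensity ran from 617 to 13284 on *Cre+, Rest GTi/GTi* arrays and from 614 to 1399 on controls. Relative to controls their mean log2 level came to 2.33, 3.29, 0 and -0.32 for replicates 1 to 4 of *Cre+, Rest GTi/GTi*, which is the order of *Pdgfra*, and their part in the *Pdgfra* values was not tested. *Col1a1*, encoding a chain of type I collagen and taken from the list after its values were seen, read 181.8, 598, 3.2 and 1.7 in *Cre+, Rest GTi/GTi* brains, against 1.8, 12, 0.9 and 33.5 in controls. By smallest p the list named *Dcn*, which encodes the matrix proteoglycan decorin (221.3 ± 189.9 in *Cre+, Rest GTi/GTi* brains and 46.9 ± 11.6 in controls, adjusted p = 0.651), *Pdgfrb*, the other PDGF receptor (281.2 ± 129.8 in *Cre+, Rest GTi/GTi* brains and 178.2 ± 11.1 in controls, adjusted p = 0.778), and the transcription factor *Foxc1* (142.2 ± 117.4 in *Cre+, Rest GTi/GTi* brains and 48.0 ± 10.7 in controls, adjusted p = 0.789). The limma test called 0 of these 11, as did the methods' t-test, and 1 passed an unadjusted p of 0.05.

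Neural crest, Schwann and melanocyte markers, which share *Sox10* and *Erbb3* with the oligodendrocyte lineage, had a median log2 fold change of 0.03, with 8 of 14 above 0, 0 calls by limma or the methods' t-test, and 0 genes at an unadjusted p of 0.05. Their summed intensity ran from 5325 to 7391 on *Cre+, Rest GTi/GTi* arrays and from 6600 to 7022 on controls, and their mean log2 level on *Cre+, Rest GTi/GTi* replicate 2 was 0.13 above controls. *Gap43* weighed most in the sum, at 2231.7 to 3340.2 in *Cre+, Rest GTi/GTi* brains and 2796.1 to 3045.8 in controls. The sum therefore says little about the dim genes of the list. *Ednrb*, the endothelin receptor, *Mitf*, the melanocyte factor, and *S100a4*, a calcium-binding protein, had the smallest p, at -0.24, 0.33 and 0.27 in log2 fold change (adjusted p = 0.732, 0.771 and 0.778), and *S100a4* was under the constant. *Mlana*, a melanocyte marker, read 2 or less on every array. *Cdh19*, a cadherin of Schwann cell precursors, also named after its values were seen, read 22.1 on *Cre+, Rest GTi/GTi* replicate 2 and 1.3 or less on the other 7 arrays. The list did not move as a set on replicate 2. There *Ednrb* read 1146.1, below every control, *Foxd3* read 23.5, within the control range, and *Ets1* read 392.8, above every control. The part of Schwann cell precursors in the *Erbb3* values was not tested.

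Hindbrain *Hox* genes differed between arrays of 1 genotype, with summed intensities from 77 to 2014 on *Cre+, Rest GTi/GTi* arrays and from 112 to 669 on controls. Relative to controls their mean log2 level came to -0.54, 0.68, 2.19 and 1.34 for replicates 1 to 4 of *Cre+, Rest GTi/GTi*, against 0.79 for control replicate 1. The log2 fold changes of *Hoxc4*, *Hoxd3* and *Hoxa3* were 1.59, 1.71 and 1.43 with standard errors of 0.73, 0.82 and 0.76 (adjusted p = 0.744, 0.756 and 0.783). The median was 0.86, 8 of 10 lay above 0, limma and the methods' t-test called 0, and 0 passed an unadjusted p of 0.05. The *Cre+, Rest GTi/GTi* arrays with most *Hox* signal, replicates 3 and 4, were also those with most *Olig2* and *Nkx2-2* among *Cre+, Rest GTi/GTi* arrays. Controls did not share this order. Control replicate 2, with a *Hox* level of -0.34, read highest for *Olig2* (330) and *Nkx2-2* (643.7), above control replicate 1 (300.7 and 519.9). The part of hindbrain content in the *Olig2* and *Nkx2-2* values was not tested.

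In the list of ventral telencephalon and forebrain genes, 11 of 12 measured genes had a log2 fold change under 0, beside 50.5% of all genes, with a median of -0.49, and 6 of them, *Dlx1*, *Dlx2*, *Dlx5*, *Dlx6*, *Gsx1* and *Gsx2*, were below every control on all *Cre+, Rest GTi/GTi* arrays, beside 2.15% of all genes. *Emx1*, of the dorsal telencephalon, was the exception at 0.55, and *Lhx2* and *Emx2* were at -0.01 and -0.08. The 6 separated genes encode homeodomain factors of the ganglionic eminences, where forebrain interneurons and some forebrain OPCs arise. *Dlx2* read 895.8, 966, 970.3 and 927.7 in *Cre+, Rest GTi/GTi* brains, against 1465.9, 1374.5, 1553.7 and 1208.8 in controls (log2 fold change -0.56, standard error 0.09, adjusted p = 0.0944). For *Dlx5* and *Gsx2* the log2 fold changes were -0.46 and -0.67 (standard errors 0.08 and 0.11, adjusted p = 0.12 and 0.122). Limma called 0 of the 12, the methods' t-test called 0, 7 lower and 1 higher passed an unadjusted p of 0.05 (3.03% and 3.94% of all genes), and 3 were called lower and 0 higher with a trended, robust prior, which called 0.033% of all genes lower and 0.242% higher. Their mean log2 level came to -0.33, -0.32, -0.46 and -0.34 for replicates 1 to 4 of *Cre+, Rest GTi/GTi*, and -0.11 to 0.14 on controls. Since this list was also chosen with earlier results of these data known, its counts beside those shares are descriptions and no test of the list.

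By profile over the 8 arrays, each gene centred on its own mean and compared by root mean square difference in log2 units among 9801 genes, the genes most like *Olig2* were *Dlx1* and the noncoding *Dlx6os1*, from the same forebrain group, and *Acss1*, an acetyl-CoA synthetase, at 0.18 each, where the profile of *Olig2* itself spread by 0.36. *Dlx1* read 1000.1, 1159.3, 1075.3 and 1270 in *Cre+, Rest GTi/GTi* brains, against 1755.5, 1791.9, 2204.4 and 1533.3 in controls. Nearest to *Nkx2-2* were the potassium channel *Kcnn1* (0.06), *Wscd2* (0.09) and the Notch ligand *Dll3* (0.09), and *Kcnn1* and *Dll3* were also lower on every *Cre+, Rest GTi/GTi* array than on every control. Nearest to *Olig1* were the dorsal patterning factor *Pax3* (0.09), *Pipox* (0.10) and *Gm11627* (0.11). These measures use the same 8 arrays that chose the genes and describe likeness over those arrays alone.

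The genes closest to *Pdgfra* were *Tgfbi* (0.37), *Snai2* (0.40) and *Lgals1* (0.41), each highest on *Cre+, Rest GTi/GTi* replicates 1 and 2. *Tgfbi*, encoding an extracellular matrix protein, read 228.9, 748.2, 93.8 and 54.9 in *Cre+, Rest GTi/GTi* brains, against 72.8, 76.7, 60.8 and 74.3 in controls. The closest to *Erbb3* were *Gsn* (0.22), encoding the actin-severing protein gelsolin, *Thbs1* (0.25) and *Tpm1* (0.25). *Gsn* read 212.6, 510.5, 159.4 and 190.8 in *Cre+, Rest GTi/GTi* brains, against 155.1, 162.8, 172.5 and 151.3 in controls, again with *Cre+, Rest GTi/GTi* replicate 2 alone at the top. *Sox10*, whose own profile spread by 0.15, lay nearest to *Epm2aip1* (0.06), *Hspb11* (0.06) and *Gpank1* (0.07).

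**Figure D3:**
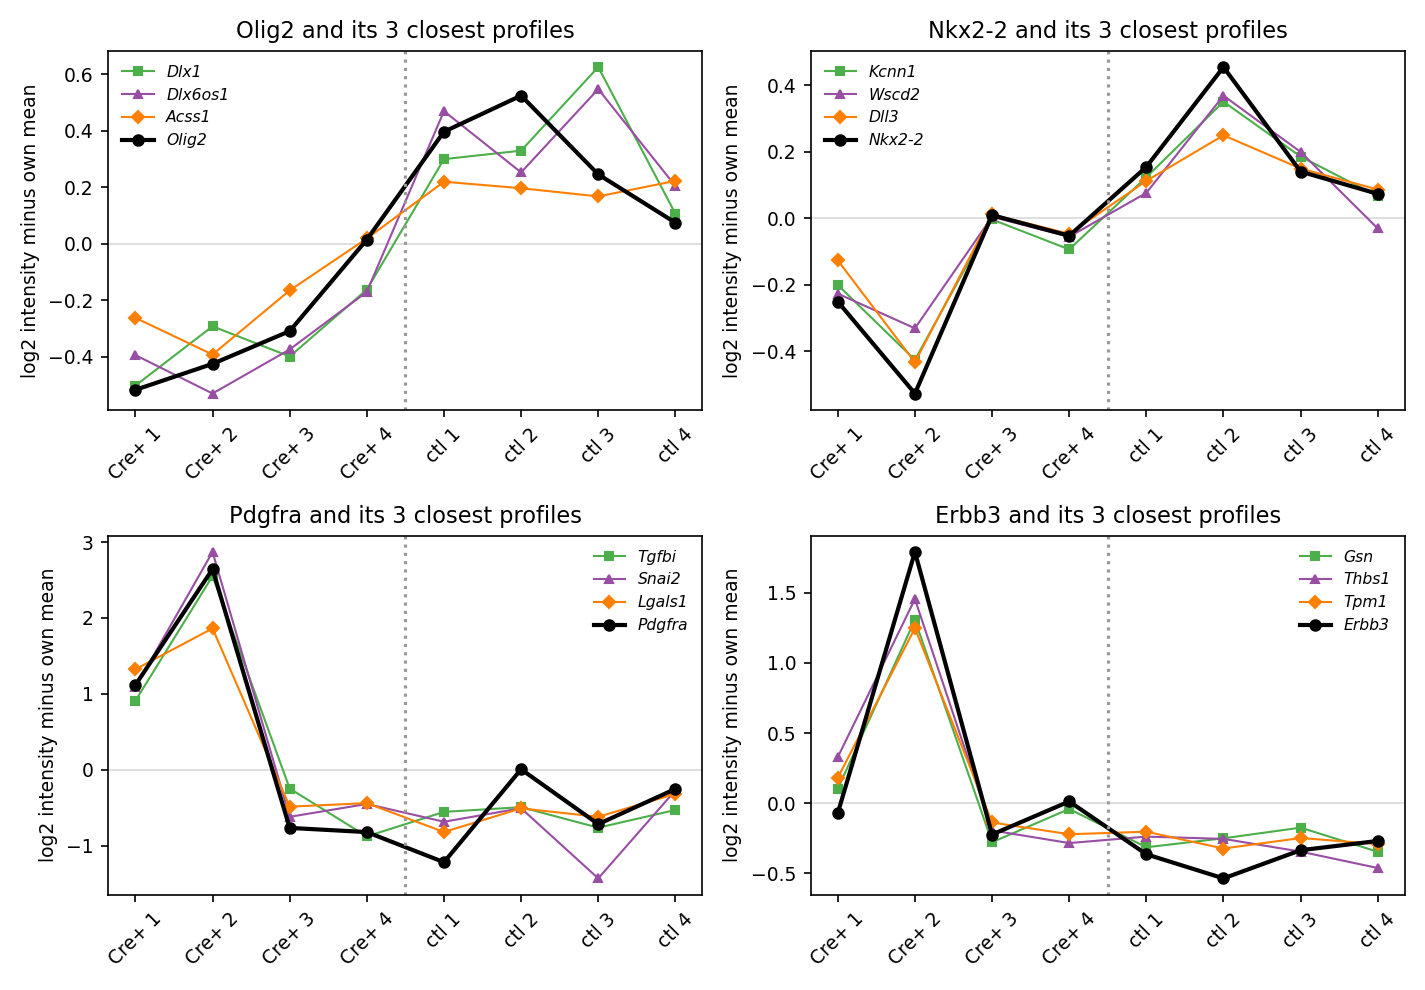
Log2 intensity minus each gene's own mean over the 8 arrays (vertical axes) for *Olig2*, *Nkx2-2*, *Pdgfra* and *Erbb3* (black) and the 3 genes closest to each (colours), with *Cre+, Rest GTi/GTi* arrays left of the dotted line and controls (ctl) right of it. The lines only join the points of 1 gene, since replicates have no order, and for *Pdgfra* and *Erbb3* the peak at *Cre+, Rest GTi/GTi* replicate 2 is shared by all 3 neighbours.

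No gene listed for the OPC pathway passed the test, as none of the 6 lineage genes had. Of 17 measured OPC regulators, ligands and co-receptors, 0 were called by limma and 0 by the methods' t-test, 2 were higher and 3 lower at an unadjusted p of 0.05, where 3.94% of all genes were higher and 3.03% lower, and the median log2 fold change was -0.07. *Cspg4*, the NG2 proteoglycan of OPCs and pericytes, read 41.4 ± 2.87 in *Cre+, Rest GTi/GTi* brains and 31.0 ± 4.85 in controls (log2 fold change 0.29, adjusted p = 0.561), and the receptor *Egfr* 66.3 ± 6.89 in *Cre+, Rest GTi/GTi* brains and 53.4 ± 3.6 in controls (0.24, adjusted p = 0.605). *Gpr17*, a receptor of maturing oligodendrocytes, read 19.5 ± 1.89 in *Cre+, Rest GTi/GTi* brains and 27.8 ± 5.04 in controls (-0.30, adjusted p = 0.606). *Pdgfa*, the ligand of the *Pdgfra* product, read 130.5 to 165.2 in *Cre+, Rest GTi/GTi* brains and 110.5 to 143.4 in controls, and *Erbb2*, the partner of *Erbb3*, 77.1 to 118 in *Cre+, Rest GTi/GTi* brains and 62.7 to 101 in controls, so the ranges overlapped for both.

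Myelin genes were mostly dim at this age, and for 8 of 15 the mean lay under the constant. Limma and the methods' t-test called 0, 1 was higher and 1 lower at an unadjusted p of 0.05, and the median log2 fold change was -0.05. *Aspa*, aspartoacylase, read 18.1 ± 1.86 in *Cre+, Rest GTi/GTi* brains and 12.0 ± 0.428 in controls (0.28, adjusted p = 0.344), *Ermn*, ermin, 38.0 ± 6.7 in *Cre+, Rest GTi/GTi* brains and 48.8 ± 3.76 in controls (-0.27, adjusted p = 0.675), and *Mbp*, myelin basic protein, 265.2 ± 18.8 in *Cre+, Rest GTi/GTi* brains and 305.8 ± 29.5 in controls (-0.19, adjusted p = 0.744).

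Among listed ventral genes under Sonic hedgehog, likewise, no difference passed the test. Of 11 measured, 0 passed even an unadjusted p of 0.05 in limma, the methods' t-test called 0, the median was -0.04 and 7 lay under 0. *Shh*, the signal itself, named after its values were seen, read 1575.2, 1529.9, 1919.1 and 2064.6 in *Cre+, Rest GTi/GTi* brains, against 1818.3, 2159.9, 2045.2 and 1599.8 in controls. The pathway target *Gli1* had a log2 fold change of 0.24, the receptor *Ptch1* of -0.08 and the transcription factor *Sim1* of -0.20 (adjusted p = 0.822, 0.901 and 0.877). Intermediate and dorsal patterning genes likewise gave 0 calls by limma or the methods' t-test, 0 of 13 at an unadjusted p of 0.05 and a median of -0.04, with *Olig3* at -0.30, *Msx1* at 0.52 and *Pax3* at -0.22 (adjusted p = 0.815, 0.815 and 0.827).

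Neurons born from *Olig2* or *Nkx2-2* progenitors, such as motor neurons and serotonergic neurons, showed no common direction, with 9 of 15 genes above 0, a median of 0.02, 0 called by limma or the methods' t-test, and 1 higher and 2 lower at an unadjusted p of 0.05. *Slc18a3*, the vesicular acetylcholine transporter of cholinergic neurons, was dim, with its mean over all arrays under the constant. It read 18.6 to 30.5 in *Cre+, Rest GTi/GTi* brains and 2.3 to 12.6 in controls (log2 fold change 0.87, standard error 0.15, adjusted p = 0.151). The cholinergic genes *Chat* and *Slc5a7* of the same list, named after their values were seen, were at 0.01 and 0.04. *Isl1*, of motor and striatal neurons, had a log2 fold change of -0.28 (adjusted p = 0.7), and *Gata2*, of serotonergic precursors and also of V2b interneurons born outside these domains, of -0.18 (adjusted p = 0.726), with every *Cre+, Rest GTi/GTi* array below every control for *Gata2*.

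**Figure D4:**
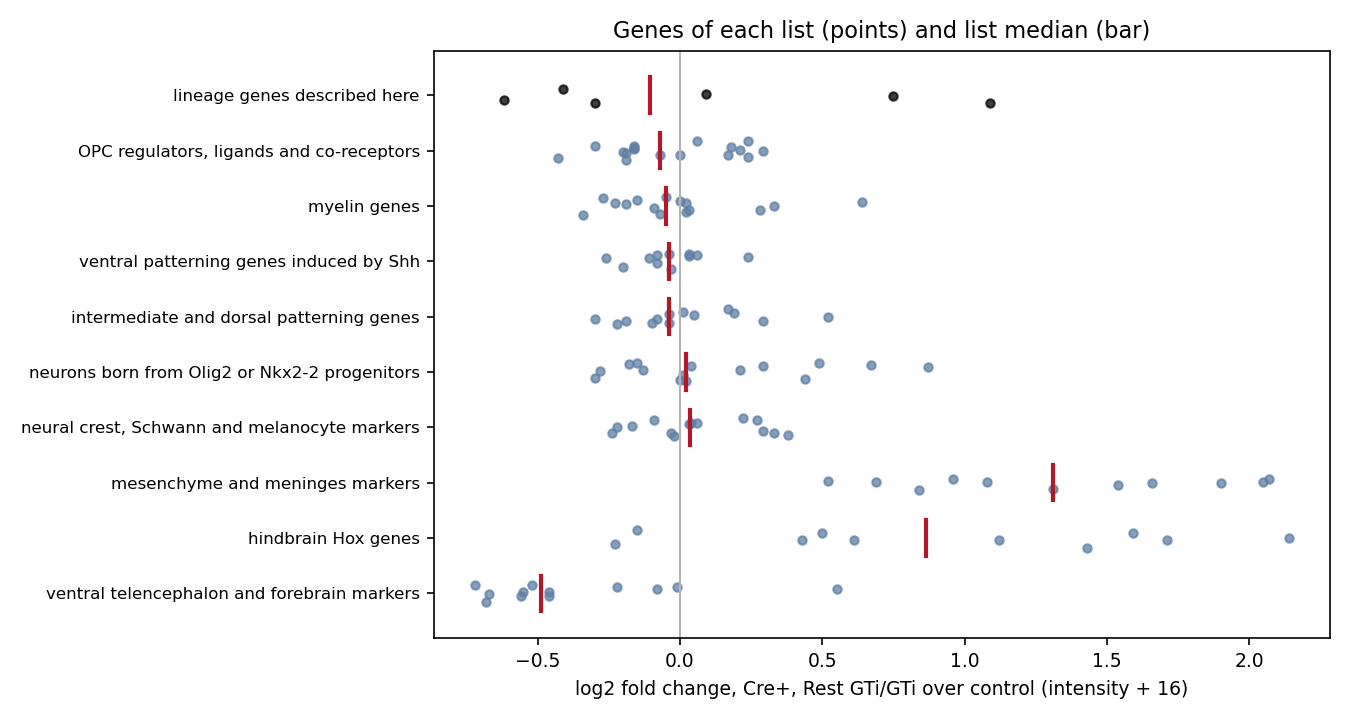
Log2 fold change, *Cre+, Rest GTi/GTi* over control, on the scale of intensity plus 16 (horizontal axis), for each measured gene (points) of the 6 lineage genes (top) and of 9 lists, with vertical bars at the medians. Points are spread vertically only for legibility, the mesenchyme list lies wholly right of 0 with a median of 1.31, and the forebrain list has its median at -0.49.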

How the data were processed

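Brain RNA of 8 E12.5 mouse embryo samples, 4 *Cre+, Rest GTi/GTi* and 4 controls with *Rest GTi/GTi* alone, was measured on 1-colour Affymetrix arrays. The authors' methods and the labels name RMA normalization (version not given in the sources used here), but the deposited values are intensities on a linear scale with unequal array medians, and which step made them is not stated. The table holds 45101 probe sets, of which 64, Affymetrix's own controls, were not used. Platform annotation names 1 gene for 34945 probe sets (18193 genes), several for 932 and none for 9160, and the probe set with the highest mean stood for each gene. For 30.6% of probe sets the mean lay under the added constant of 16.

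Intensities were quantile normalized, 16 was added and log2 taken. Genotypes were compared with limma 3.58.1 (lmFit, eBayes) in R 4.3.3, two-sided, with Benjamini-Hochberg adjustment over 45037 probe sets and a threshold of 0.05. The script was tested on simulated data. Named genes were the 6 lineage genes, the 3 closest profiles to each (mean of at least 100), up to 3 genes of smallest p per list, *Rest*, *Eif2s3y* and *Xist*. *Col1a1*, *Cdh19*, *Mlana*, *Foxd3*, *Ets1*, *Gap43*, *Pax6*, *Pdgfa*, *Erbb2*, *Shh*, *Chat*, *Slc5a7*, *Emx1*, *Emx2* and *Lhx2*, and the forebrain genes listed for their separation, were added after their values were seen. The 6 genes and the 9 lists (131 genes, 13 not analysed here) were chosen with earlier results of these data known. Promoter windows came from a RefSeq table. Alternatives were other scalings, constants of 1 and 50, the methods' t-test with equal or unequal variances, a trended robust prior, a filter on dim probe sets (mean of 50), means of probe sets, leaving out less specific probe sets, sex terms, a replicate block, and subsets of arrays. The number of arrays limits the precision. Replicate numbers did not pair the arrays, and 0 columns were identical.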

Additional observations from a re-analysis of the deposited data

Results flagged for a closer look

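In 6 of 110 groups of 4 arrays, the lowest or highest array lay further from the others, in log2 units, than Dixon's critical value allows. Chance alone marks about 1 in 20 groups, and 6 of 110 is near that share, so nothing is read from the flags. In 3 of the 6 the array was *Cre+, Rest GTi/GTi* replicate 2, at 118.1 for *Erbb3* on its brighter probe set, 64 for *Sox10* on its second probe set and 406.9 for *Hspb11*. *Hspb11* was included as a closest profile to *Sox10*, itself highest on that array, so its flag was not independent. In these and for *Pax3*, on *Cre+, Rest GTi/GTi* replicate 4 at 497.5, the array stood above the others. Among controls, *Gpr17* was set apart below the others on replicate 4 at 20.3, and *Hoxc4* above them on replicate 3 at 2.4. Every control value of *Hoxc4* lay under the added constant.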

How the results depend on the processing

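*Olig1*, *Olig2* and *Nkx2-2* kept a log2 fold change below 0 under all 15 alternatives (-0.34 to -0.15, -0.66 to -0.46 and -0.46 to -0.23) and with each array left out (-0.42 to -0.23, -0.73 to -0.55 and -0.48 to -0.30). *Sox10* ran from 0.03 to 0.18 and *Erbb3* from 0.27 to 1.15 under the 14 alternatives that keep them, since the filter on dim probe sets drops both, and leaving out arrays gave 0.01 to 0.16 and 0.28 to 0.95. *Pdgfra* was -0.25 where replicates 3 and 4 stood alone for *Cre+, Rest GTi/GTi*, and there *Msx1* was -0.03 and *Foxc1* -0.09. Leaving out arrays moved *Pdgfra* between 0.39 and 1.54. Forebrain genes called lower numbered 3 with a trended robust prior (*Dlx1*, *Dlx2*, *Dlx5*), 1 without dim probe sets and 1 with the mean of all probe sets (*Dlx2* in both), and the cause was not tested. Over all genes, limma's 39 calls higher and 2 lower became 0 to 44 and 0 to 6 under the alternatives, and 21 to 31 and 0 to 1 with an array left out. The replicate block gave -0.62 for *Olig2* and 0 calls over all genes. Residuals of arrays with the same number correlated at -0.204 to 0.041, with different numbers at -0.103 to 0.146, and 0 of 8 arrays correlated best with its own number.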
